A study of Mus musculus with 3 samples.

Results

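The nuclear-encoded subunits of oxidative phosphorylation (OXPHOS) were examined in cerebella of Smarca5 conditional knockout (cKO) and wild-type mice. Members were all genes on the array whose updated symbol begins with Ndufa, Ndufb, Ndufc, Ndufs, Ndufv, Sdha to Sdhd, Uqcr, Cox4 to Cox8 or Atp5, without the Ndufaf assembly factors. This gave 81 genes, read by 186 probes, among 19860 named genes and 28199 features in all. All 81 had a value on each of the 3 arrays, so none was lost to a filter. By complex there were 33 genes of complex I, 4 of complex II, 8 of complex III, 19 of complex IV and 17 of complex V, the ATP synthase. Ndufa4 was counted with complex IV, of which its protein is a subunit. Other genes that the rule would admit, among them Ndufa4l2, Ndufb1 and Ndufb6, were not analysed here.

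The cKO and the wild-type mice were both C57Bl/6, and cerebella were dissected at postnatal day 10. Each of the 3 arrays with 2 colours held cKO RNA against wild-type RNA, with the cKO in Cy5 on replicates 1 and 2 and in Cy3 on replicate 3, the array with flipped dyes. The sources used here do not give the allele, the Cre driver or the cells in which Smarca5 was deleted, nor whether a sample was 1 animal or a pool. Each value below is the log2 of cKO over wild type on arrays whose median is 0, with the SD over arrays (n = 3), so a negative value is lower in the cKO. The log base is not stated and was taken as 2, so a fold change holds only for that base. The labels do not say that replicates were separate animals, so p-values reflect only array-to-array spread, possibly technical.

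The respiratory chain of the inner mitochondrial membrane passes electrons from NADH (complex I) and succinate (complex II) through ubiquinone to complex III, by cytochrome c to complex IV, and on to oxygen. Complexes I, III and IV pump protons, and complex V makes ATP from the return flow. Most subunits are encoded in the nucleus and imported, and a small core of complexes I, III, IV and V is encoded in mitochondrial DNA. Neurons depend on this pathway for the ATP that drives ion pumping and synaptic transmission. Several complex IV subunits exist as a form used in most tissues and a form known mainly from heart and skeletal muscle, lung or testis. The latter are called tissue-restricted below, though their use elsewhere is not excluded.

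Smarca5, an ATPase of the ISWI chromatin remodelers, had -0.86 ± 0.11 in this fit (limma, adjusted p = 0.0883), and the sign given to the ratios leans in part on it. Whether its probes lie in the deleted stretch is not known here. Genes that define the labelled tissue were on the array. Of 18 measured granule neuron markers, 17 were below 0 on all 3 arrays, against 21.5% of all features. The median of these markers was -1.14, and Gabrd, a GABA receptor subunit, had -2.50 ± 0.36. The 13 Purkinje cell markers had a median near 0 (Foxp2 0.57, Lhx5 -0.46). Of these, 2 were above and 3 below 0 on all 3 arrays, against 22.1% and 21.5% of all features. All 14 microglial markers were above 0 on all 3 arrays, against 22.1% of all features, and their median was 0.89. The 12 markers of brainstem and midbrain neurons had a median of 1.87 but were mixed. By limma, 8 of them were higher at an unadjusted p under 0.05 (Ddc 1.83, Slc18a2 3.24), against 10.9% of all features. Chat (0.23), Hoxa5 (0.17), Hoxb5 (-0.23) and Hoxb2 (-0.35) did not reach it. The oligodendrocyte lineage was split, with a median of 0.09. Of its 14 markers, 6 were higher at an unadjusted p under 0.05 (Opalin 1.20, Enpp6 1.02) and 0 lower, against 10.9% and 9.98% of all features. List medians were 0.12 for astrocytes and Bergmann glia, -0.36 for the cell cycle and -0.31 for red cells. In dissected tissue, a change in the number of cells of a type and a change of RNA per cell cannot be told apart. The part of these shifts in the values below was not tested. Ratios carry no signal strength, so how far each probe stood above background is unknown.

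The OXPHOS subunit genes stayed close to 0 as a family. Of the 81 members, 67 (82.7%) had a mean within 0.2 of 0 on the log2 scale, against 43.6% of all features. The median of the members was -0.02, against 0.01 over all named genes. On the single arrays the members' median was -0.05, -0.04 and 0.03 on replicates 1, 2 and 3, so the array with flipped dyes lay on the other side of 0. The members' means had an SD over genes of 0.25, against 0.44 for all named genes, and 0.14 without the 7 tissue-restricted forms of complex IV. Members also varied less between arrays, with a median SD over the arrays of 0.08, against 0.25 for all named genes. How far signal strength entered either spread was not tested.

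**Figure D1:**
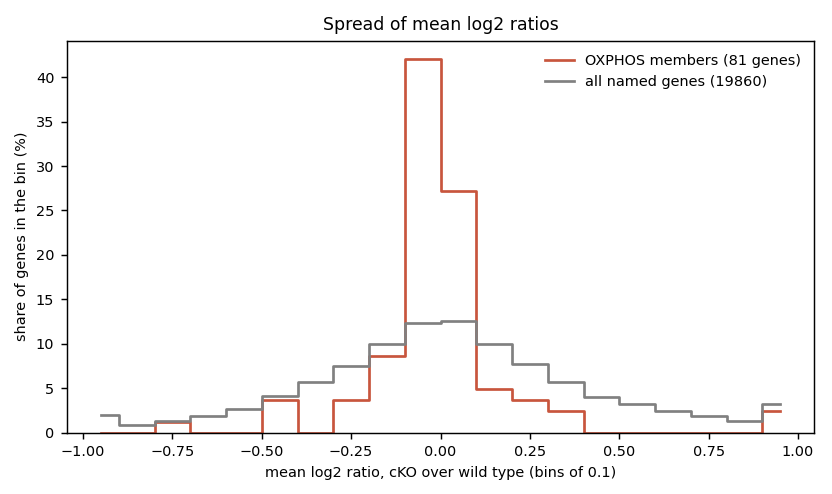
Share of genes (%, vertical axis) by mean log2 ratio of cKO over wild type (horizontal axis, bins of 0.1, with values beyond 0.9 in size pooled in the end bins), for the 81 OXPHOS members and the 19860 named genes. The members' line peaks beside 0 (42.0% of them from -0.1 to 0), above the line of all named genes (12.3% there), and 2 members lie in the highest bin.

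No member was called. With limma's moderated statistic and Benjamini-Hochberg adjustment over all features, 0 of 81 members passed an adjusted p of 0.05, as did 0% of all features, and 0 members passed without moderation. The lowest adjusted p among the members was 0.0839. At an unadjusted p under 0.05 there were 6 members (7.41%, against 20.9% of all features), with 3 higher members (3.7%, against 10.9% of all features) and 3 lower members (3.7%, against 9.98%). The higher ones were Cox6a2, Cox8b and Atp5c1, and the lower ones were Cox7a1, Ndufs1 and Ndufb4. Only Cox6a2, Cox8b and Cox7a1, which are 3.7% of the members, had a mean beyond 0.5 in size, against 21.9% of all features. Leaving out any 1 array took Ndufs1, Ndufb4 and Atp5c1 past an unadjusted p of 0.05: without replicates 1, 2 and 3, limma gave 0.0514, 0.124 and 0.099 for Ndufs1, 0.104, 0.0741 and 0.126 for Ndufb4, and 0.16, 0.0911 and 0.101 for Atp5c1. Cox6a2, Cox8b and Cox7a1 stayed under it in each case. Above 0 on all 3 arrays were 9 members (11.1%, against 22.1% of all features), and below 0 on all 3 arrays were 14 (17.3%, against 21.5%).

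Many members had another sign on the array with flipped dyes. Members lay closer to 0 than all features did, so a smaller shift is enough to turn their sign. The shares below are therefore not like for like. Since that is 1 array, the dye and anything else particular to it cannot be told apart. Of the 81 members, 25 (30.9%) were below 0 on replicates 1 and 2 and above 0 on replicate 3, against 10.4% of all features. The opposite pattern held for 7 members (8.64%, against 11% of all features). Ndufb7, a subunit of the distal membrane arm of complex I, showed the first of these patterns, with -0.32, -0.26 and 0.22 on replicates 1, 2 and 3. Atp5j2, a small membrane subunit of the ATP synthase, had -0.36, -0.21 and 0.13. Both are among the larger turns of sign, and others were small, such as Ndufa1 with -0.08, -0.01 and 0.03. With a dye term in the fit, 69 members were within 0.2 of 0, and Atp5c1 had 0.36 and Ndufs1 -0.47. That fit has 1 flipped array, so it cannot measure the spread of flipped arrays.

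**Figure D2:**
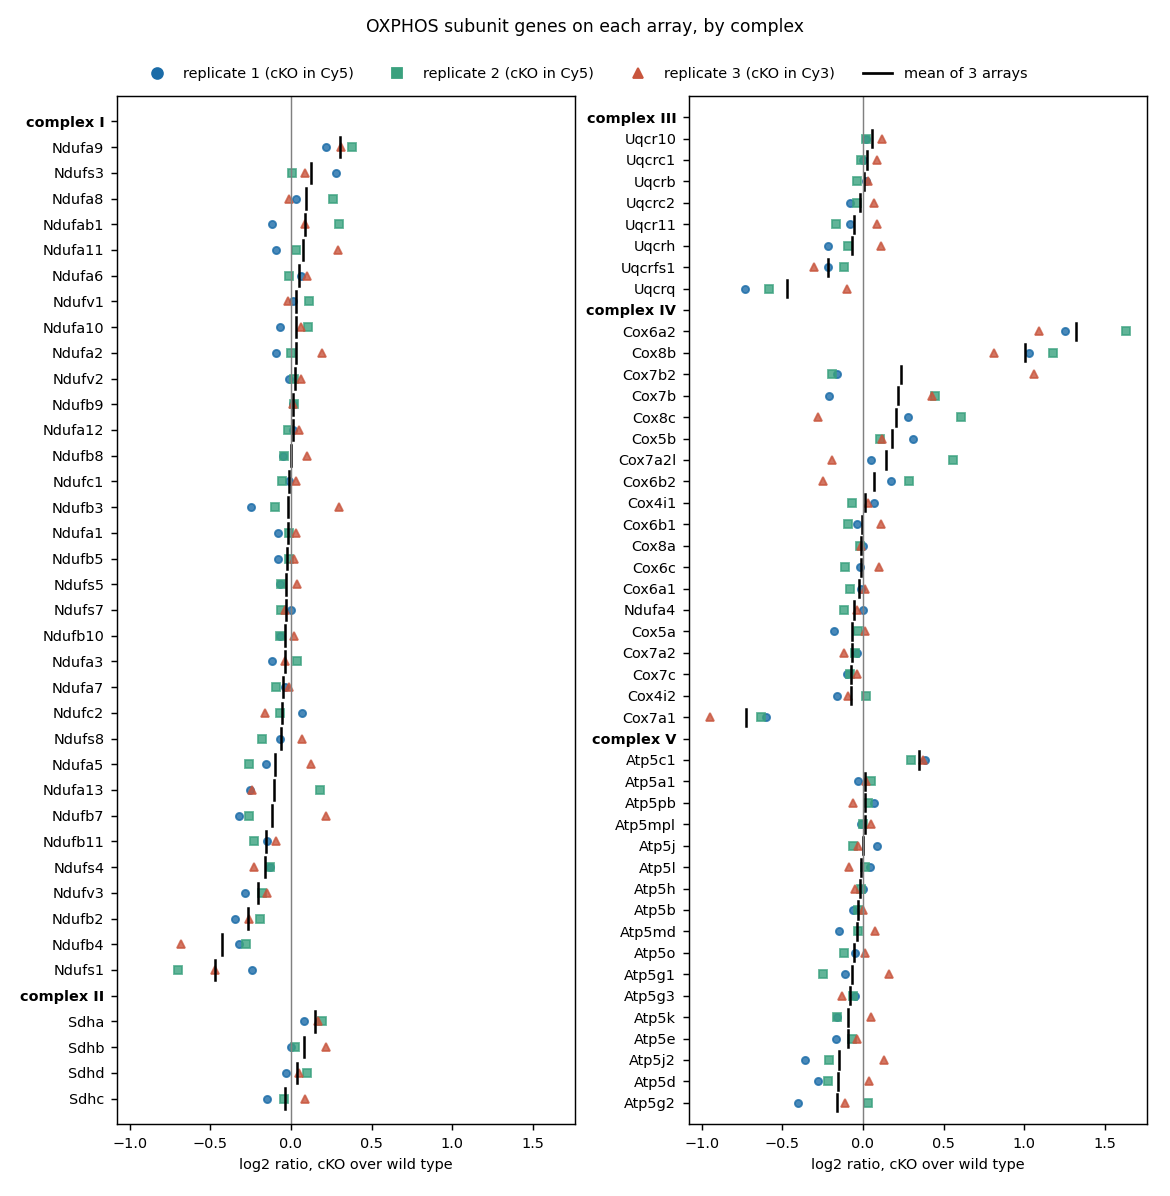
log2 ratio of cKO over wild type (horizontal axis) of each of the 81 members (rows, grouped by complex and sorted by mean), with a symbol for each array and a bar for the mean of 3 arrays. Most rows lie within 0.2 of 0. Cox6a2, Cox8b and Cox7a1 of complex IV stand apart on all 3 arrays.

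Complex I, the NADH dehydrogenase, had a median of -0.02 over its 33 genes, with array medians of -0.07, -0.05 and 0.03. Of these genes 28 were within 0.2 of 0. The N module, which holds the NADH binding site, had a median of 0.01 over 9 genes, and the Q module, which reduces ubiquinone, had -0.03 over 5. The proximal membrane arm had -0.02 over 9 genes, all within 0.2 of 0, and the distal membrane arm had -0.04 over 9.

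Single genes of complex I departed further. Ndufs1, the large iron-sulfur subunit of the N module, had -0.24, -0.70 and -0.47 on replicates 1, 2 and 3, a mean of -0.47 ± 0.23 (limma, unadjusted p = 0.0322, adjusted p = 0.199). All 3 arrays were below 0, but its probes did not share this: a probe that the array names by a cDNA clone had -0.91 ± 0.41 and the probe named Ndufs1 had -0.03 ± 0.06. Ndufb4, an accessory subunit of the distal arm, had -0.32, -0.28 and -0.68, a mean of -0.43 ± 0.22 (limma, adjusted p = 0.22). Its probes differed too, at -0.85 ± 0.34 and -0.01 ± 0.11, and the gene table holds the further copies Ndufb4b and Ndufb4c. Ndufb2, another subunit of that arm, had 1 of 3 probes at -0.70 ± 0.07 and the others at -0.06 ± 0.26 and -0.04 ± 0.03.

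On the higher side of complex I was Ndufa9, an accessory subunit next to the ubiquinone site, with 0.22, 0.38 and 0.31 from 1 probe. Its mean of 0.30 ± 0.08 was the highest of the complex, and it did not pass (limma, adjusted p = 0.266). Ndufs3, a core subunit of the Q module, had 0.28, 0.01 and 0.09, with a mean of 0.13 ± 0.14 that does not exceed its spread. Ndufa8, of the proximal arm, had 0.03, 0.26 and -0.01. The remaining core subunits with a value lay near 0: Ndufv1, which binds the flavin, had 0.03 ± 0.07, and Ndufv2 had 0.02 ± 0.04. Ndufs7 and Ndufs8, which carry iron-sulfur clusters, had -0.03 ± 0.03 and -0.06 ± 0.13.

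Complex II, the succinate dehydrogenase shared with the tricarboxylic acid cycle, had a median of 0.06 over its 4 genes, all of them nuclear. Sdha, the flavoprotein subunit, had 0.08, 0.19 and 0.17, a mean of 0.15 ± 0.06 (limma, adjusted p = 0.546). This mean rests on 78 spots annotated as Sdha, of which 1 had no value on replicate 2. Similar numbers of spots were annotated as Tbp (79), Hprt (78), Ywhaz (77) and B2m (77), genes often used as expression standards. Of the 78 Sdha spots, 68 had a mean above 0, and the spot means ran from -0.46 to 0.85 with a median of 0.16. Over the same kind of spots Hprt, a purine salvage enzyme, had 0.10 ± 0.05 and Tbp, the TATA-binding protein, had -0.38 ± 0.04.

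The other subunits of complex II did not exceed their spread. Sdhb, the iron-sulfur subunit, had 0.00, 0.03 and 0.22, a mean of 0.08 ± 0.12. The membrane anchors Sdhc and Sdhd had -0.04 ± 0.12 and 0.04 ± 0.07. Both probes of Sdhc lay below 0 and within 0.1 of it.

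Complex III, the cytochrome c reductase, had a median of -0.03 over 8 genes, with array medians of -0.08, -0.07 and 0.08. Uqcrq, a small subunit named through a clone synonym, was the lowest, with -0.73, -0.58 and -0.10. Its mean of -0.47 ± 0.33 did not pass (limma, adjusted p = 0.249), and the array with flipped dyes lay much closer to 0 than the others. Uqcrfs1, the Rieske iron-sulfur protein, had -0.22, -0.12 and -0.31, from a probe at -0.49 ± 0.22 and a probe of opposite sign at 0.06 ± 0.39. The core proteins Uqcrc1 and Uqcrc2 had 0.03 ± 0.06 and -0.02 ± 0.08. Uqcrb, Uqcr10 and Uqcrh, small subunits of the complex, had 0.00 ± 0.04, 0.05 ± 0.06 and -0.07 ± 0.17.

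Complex V, the ATP synthase, was the most uniform of the larger complexes, with 16 of 17 genes within 0.2 of 0 and a median of -0.03. The exception was Atp5c1, the gamma subunit that turns inside the F1 head, with 0.39, 0.30 and 0.37, a mean of 0.35 ± 0.05 (limma, unadjusted p = 0.0382, adjusted p = 0.214). A probe at 0.66 ± 0.16 and a probe at 0.04 ± 0.06 made up this mean. The catalytic subunit Atp5b had -0.03 ± 0.03 and its partner Atp5a1 had 0.01 ± 0.04, so the F1 head lay on both sides of 0. Over the 4 genes of the peripheral stalk, which holds the head still, means ran from -0.05 to 0.01. The 3 genes that encode the same c-ring protein with different import signals, Atp5g1, Atp5g2 and Atp5g3, had -0.07 ± 0.21, -0.16 ± 0.22 and -0.08 ± 0.04.

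Complex IV, the cytochrome c oxidase, had a median of -0.01 over 19 genes but the widest range of the complexes, from -0.73 to 1.32. Its forms used in most tissues (Cox4i1, Cox6a1, Cox6b1, Cox7a2, Cox7b and Cox8a) had a median of -0.01 and ran from -0.07 to 0.22. Its tissue-restricted forms (Cox4i2, Cox6a2, Cox6b2, Cox7a1, Cox7b2, Cox8b and Cox8c) ran over the whole range, with 2 of 7 within 0.2 of 0. Subunits with a single form (Cox5a, Cox5b, Cox6c and Cox7c) were all within 0.2 of 0. Ndufa4 had -0.05 ± 0.06.

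Both complex IV genes at an unadjusted p under 0.05 on the higher side encode heart and muscle forms. Cox6a2, the muscle form of subunit VIa, had 1.25, 1.63 and 1.09 on replicates 1, 2 and 3, a mean of 1.32 ± 0.28, which is 2.5-fold higher (limma, unadjusted p = 0.00106, adjusted p = 0.0839). Its counterpart Cox6a1 had -0.01, -0.08 and 0.01, so the pair did not overlap on these arrays, and the difference was 1.35 ± 0.32. Cox8b, the muscle form of subunit VIII, had 1.03, 1.18 and 0.81, a mean of 1.01 ± 0.19, which is 2.01-fold higher (limma, unadjusted p = 0.00166, adjusted p = 0.0839). Its counterpart Cox8a had 0.00, -0.02 and -0.01, and the difference was 1.02 ± 0.19. Each of these muscle forms was read by 1 probe.

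Cox7a1, the muscle form of subunit VIIa, lay on the other side. It had -0.60, -0.63 and -0.95, a mean of -0.73 ± 0.19, with wild type 1.66-fold above the cKO (limma, unadjusted p = 0.00594, adjusted p = 0.109). Its counterpart Cox7a2 had -0.04, -0.05 and -0.12, and the difference between them was -0.66 ± 0.15. The 3 muscle forms therefore did not share a direction. Cox7a2l, a related protein that joins complexes III and IV into supercomplexes, had 0.05, 0.56 and -0.19, a spread wider than its mean.

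The lung and testis forms had no unadjusted p under 0.05 as fitted. Cox4i2, the lung form of subunit IV, had -0.08 ± 0.09, against 0.01 ± 0.07 for Cox4i1. The testis forms Cox6b2, Cox7b2 and Cox8c had 0.07 ± 0.28, 0.24 ± 0.71 and 0.20 ± 0.45, and each changed sign on the array with flipped dyes. Cox7b2 had -0.16, -0.19 and 1.06, and with a dye term, which weights the flipped array more, its value was 0.44. That value leans on the single flipped array, whose spread such a fit cannot measure. For Cox7b, its counterpart, a probe had -0.03 ± 0.08 and another 0.47 ± 0.67.

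**Figure D3:**
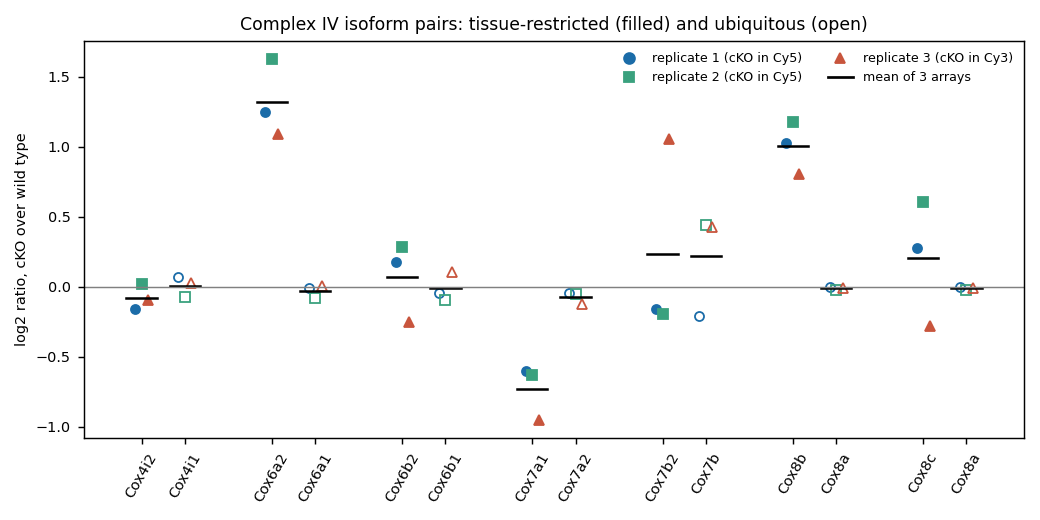
log2 ratio of cKO over wild type (vertical axis) of 7 pairs of complex IV forms, the tissue-restricted form (filled) left of the form used in most tissues (open), with a symbol per array and a bar for the mean of 3 arrays. Cox6a2 and Cox8b lie between 0.81 and 1.63 and Cox7a1 between -0.95 and -0.60, while Cox6a1, Cox8a and Cox7a2 lie within 0.2 of 0.

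Genes of striated muscle were higher on the same arrays. Of 15 measured genes of the muscle list, 13 had a mean above 0 and 10 were above 0 on all 3 arrays, against 22.1% of all features. Unadjusted p was under 0.05 for 8 of the 15, all higher, against 10.9% of all features, and 0 passed the adjusted threshold. The median of the list was 0.75, with 0.82, 1.01 and 0.48 on replicates 1, 2 and 3. Myl1, a myosin light chain, had 2.03 ± 0.32 and Tnnt1, the slow troponin T, had 1.26 ± 0.22 (limma, adjusted p = 0.0839 for both). Mb, the oxygen store myoglobin, had 1.83, 2.11 and 3.33, whereas Ckm, muscle creatine kinase, had -0.36, 0.00 and -0.20, and Acta1, skeletal actin, had 0.41 ± 0.24. Myh2, a fast myosin, turned its sign on replicate 3, with 3.43, 3.92 and -4.94. The part of muscle RNA in the values of Cox6a2, Cox8b and Cox7a1 was not tested. The list of testis germ cells had a median of 0.10 over 10 genes, 7 with a mean above 0. Of these, 1 was above 0 on all 3 arrays, against 22.1% of all features. Spata19 had 1.83, 0.09 and 0.83, a mean of 0.92 ± 0.87, and Akap4, a sperm tail protein, had -0.48 ± 0.16. Brown fat, which also uses Cox7a1 and Cox8b, had a list median of -0.09 over 7 genes. Its medians on replicates 1, 2 and 3 were -0.365, 0.54 and -0.05, so the list was unsteady between arrays. Of its genes 0 were above 0 on all 3 arrays, against 22.1% of all features, a share at which so few genes show little.

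**Figure D4:**
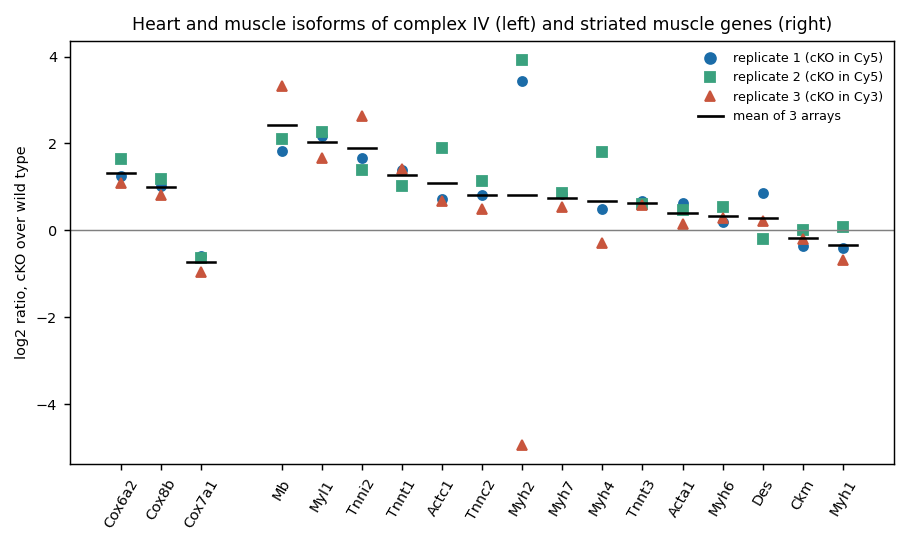
log2 ratio of cKO over wild type (vertical axis) of the heart and muscle forms of complex IV (left) and of 15 striated muscle genes sorted by mean (right), with a symbol per array and a bar for the mean of 3 arrays. Cox6a2 and Cox8b lie above 0 with 13 of the muscle genes by mean, Cox7a1 lies below 0, and Myh2 turns its sign on replicate 3.

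Promoters are printed for Cox8b and Cox7a1, the muscle forms that lay on opposite sides of 0, beside their counterparts Cox8a and Cox7a2. That of Cox6a1 stands alone, since Cox6a2 had no entry in the promoter table. Shown are the 250 bases before the annotated start (RefSeq, GRCm38.p6), 5′ to 3′ along the gene, with capitals for any match to the NRF1 motif (GCGC, any base, then TGCGC), the ETS motif CCGGAAG or the CCAAT box on either strand. NRF1 and the ETS factor GABP are textbook activators of OXPHOS genes.
Cox8b, chr7:140900447-140900696, minus strand: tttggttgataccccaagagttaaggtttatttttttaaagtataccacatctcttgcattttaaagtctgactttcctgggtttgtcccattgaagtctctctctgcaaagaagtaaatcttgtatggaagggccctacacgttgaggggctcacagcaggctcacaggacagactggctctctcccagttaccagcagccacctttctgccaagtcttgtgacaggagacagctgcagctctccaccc
Cox8a, chr19:7217617-7217866, minus strand: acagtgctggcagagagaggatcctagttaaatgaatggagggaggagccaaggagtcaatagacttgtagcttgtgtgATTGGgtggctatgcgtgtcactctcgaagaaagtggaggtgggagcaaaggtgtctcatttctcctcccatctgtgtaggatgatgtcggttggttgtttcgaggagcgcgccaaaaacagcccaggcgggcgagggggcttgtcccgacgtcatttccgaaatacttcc
Cox7a1, chr7:30183921-30184170, plus strand: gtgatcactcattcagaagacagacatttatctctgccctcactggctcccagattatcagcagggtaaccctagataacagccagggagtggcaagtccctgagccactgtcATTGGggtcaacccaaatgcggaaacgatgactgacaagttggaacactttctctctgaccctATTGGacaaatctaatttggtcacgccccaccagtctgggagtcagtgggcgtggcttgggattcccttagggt
Cox7a2, chr9:79759854-79760103, minus strand: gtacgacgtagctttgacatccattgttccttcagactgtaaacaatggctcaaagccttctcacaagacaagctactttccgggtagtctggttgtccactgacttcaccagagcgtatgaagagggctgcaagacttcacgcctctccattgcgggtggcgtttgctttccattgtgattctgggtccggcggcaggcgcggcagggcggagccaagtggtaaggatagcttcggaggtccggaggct
Cox6a1, chr5:115348959-115349208, minus strand: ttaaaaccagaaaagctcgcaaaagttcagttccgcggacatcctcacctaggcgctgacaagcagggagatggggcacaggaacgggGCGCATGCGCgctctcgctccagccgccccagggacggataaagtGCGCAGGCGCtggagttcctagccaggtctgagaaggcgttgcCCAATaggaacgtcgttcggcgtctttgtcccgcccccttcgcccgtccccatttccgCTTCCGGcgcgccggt

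The window of Cox8b held none of these motifs and 1 CG dinucleotide, while that of Cox8a held 1 CCAAT box and 11 CG. The window of Cox7a1 held 2 CCAAT boxes and 4 CG, and that of Cox7a2 no match and 14 CG. Cox6a1 had 2 NRF1 matches, 1 ETS match, 1 CCAAT box and 26 CG. Of the members, 67 had at least 1 window in the promoter table, 72 windows in all. The NRF1 motif was in 18.1% of these windows, against 3.74% of all 32851 windows of the same length, the ETS motif in 15.3%, against 6.91%, and the CCAAT box in 41.7%, against 33.8%. The members' windows had a median of 14 CG, against 6 in all windows. A match describes the letters of the window and not binding.

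Probes of a gene disagreed in several members with a mean beyond 0.2 in size and in some within it, such as Ndufs4 and Cox5b. Of 14 members with a mean beyond 0.2 in size, 7 had several probes. Among the 23 members with several probes other than Sdha, 9 had probe means at least 0.5 apart, and in 8 of these a probe lay within 0.1 of 0. These 8 were Ndufs1, Ndufb4, Ndufb2, Ndufs4, Uqcrfs1, Atp5c1, Cox5b and Cox7b, of which Cox7b had a second probe that changed sign between arrays. How often the probes of other genes on the array lie as far apart was not tested. Ndufs4, a subunit needed late in complex I assembly, had 3 probes named by its symbol from -0.04 to -0.02 and a clone-named probe at -0.56 ± 0.13. Cox5b, a zinc-binding subunit of complex IV, had a probe at 0.55 ± 0.46 and its others at 0.00 ± 0.05 and -0.01 ± 0.11. Which transcript each probe reads is not known here, and 10 members have a named pseudogene in the gene table, among them Atp5c1 and Cox5b. Of 57 members read by 1 probe, 50 were within 0.2 of 0.

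**Figure D5:**
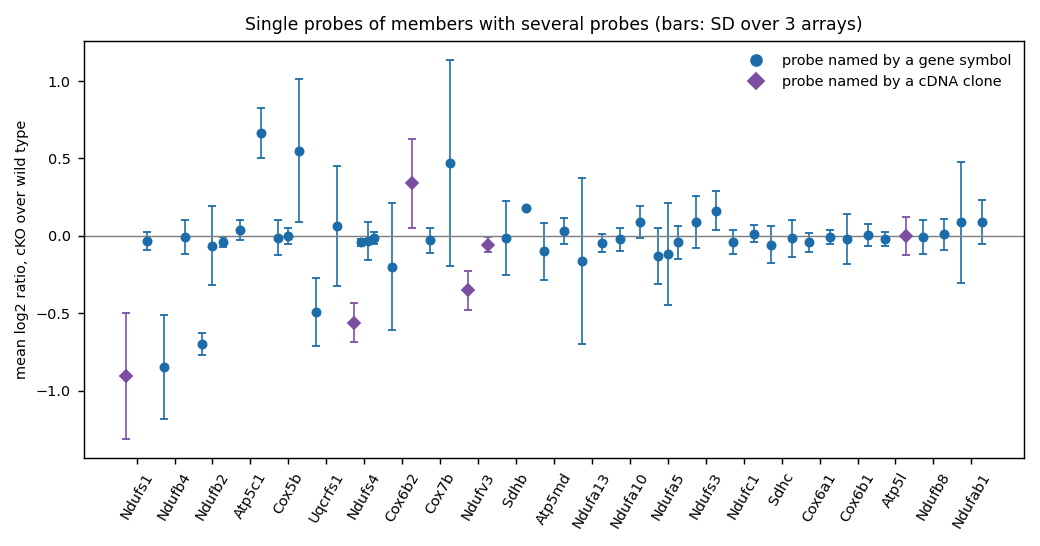
Mean log2 ratio of cKO over wild type (vertical axis, bars show the SD over 3 arrays) of each probe of the 23 members with several probes, without Sdha, sorted by the distance between a gene's probes. In the genes at the left a probe lies away from 0 and another beside it, for example -0.91 and -0.03 for Ndufs1.

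Genes that build, supply or control the chain were compared from lists. The 42 measured assembly factors of the respiratory chain had a median of 0.05 and spread more than the subunits, with 28 (66.7%) within 0.2 of 0, against 43.6% of all features. At an unadjusted p under 0.05 there were 3 higher and 3 lower (against 10.9% and 9.98% of all features), and 0 passed limma's adjusted threshold. Sdhaf3, an assembly factor of complex II, had 0.86, 0.75 and 0.46, a mean of 0.69 ± 0.21 (limma, adjusted p = 0.117). Timmdc1, an assembly factor of complex I, had -0.28, -0.87 and -0.62, a mean of -0.59 ± 0.30 (limma, adjusted p = 0.171).

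The electron carriers and the tricarboxylic acid cycle also stayed near 0. Of 6 carrier genes, 0 had an unadjusted p under 0.05, against 20.9% of all features, a share at which so few genes show little. Cycs, cytochrome c, had -0.00 ± 0.11 and Cyc1, cytochrome c1 of complex III, whose symbol falls outside the rule, had -0.50, -0.19 and 0.03. Etfb, a subunit of the electron transfer flavoprotein, had 0.24 ± 0.11. The 15 cycle genes had a median of 0.02, and 13 were within 0.2 of 0. Suclg2, a subunit of succinyl-CoA ligase, had 0.53 ± 0.26 (limma, adjusted p = 0.184), and Dlst, of the oxoglutarate dehydrogenase, had -0.22 ± 0.05 (limma, adjusted p = 0.38). The 9 genes of ATP and phosphate carriers, porins and creatine kinases were all within 0.2 of 0, with Ckb at -0.12 ± 0.11 and Vdac3, a porin, at -0.11 ± 0.10.

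Regulators of mitochondrial biogenesis lay mostly below 0. Of 20 measured, 14 had a mean below 0 and 9 were below 0 on all 3 arrays, against 21.5% of all features, with a median of -0.18. At an unadjusted p under 0.05 there were 3 lower and 1 higher, against 9.98% and 10.9% of all features, and 0 passed limma's adjusted threshold. The higher one was Ppargc1a, the coactivator PGC-1alpha, with 0.84, 0.84 and 0.71, a mean of 0.79 ± 0.08 (limma, unadjusted p = 0.00239, adjusted p = 0.0907). Gabpb2, a partner of the ETS factor GABP, had -0.50, -0.44 and -0.58, a mean of -0.51 ± 0.07 (limma, adjusted p = 0.135). With symbols as on the array, Gabpb2 had -0.26 and an unadjusted p of 0.242 by limma. Gabpa, the DNA-binding subunit of GABP, had -0.32 ± 0.04 (limma, adjusted p = 0.238), and Nrf1 had -0.20 ± 0.23. Tfam, which packages mitochondrial DNA and takes part in its transcription, had 0.07 ± 0.28. Gabpa, Nrf1 and Tfam were named after their values were seen, Gabpa and Nrf1 for their known link to OXPHOS promoters.

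Other mitochondrial and energy genes gave medians near 0. Glycolysis and lactate genes had a median of 0.01 over 20 genes, 16 of them within 0.2 of 0. Aldoc, a brain aldolase that also marks bands of Purkinje cells, had 0.90 ± 0.16 (limma, adjusted p = 0.0907), and Hk2, an inducible hexokinase, had -0.72 ± 0.22 (limma, adjusted p = 0.116). Mitochondrial antioxidant enzymes had a median of -0.05 over 8 genes, with Gsr, glutathione reductase, at -0.43 ± 0.34 and Prdx3 at -0.18 ± 0.10. Genes of mitochondrial ribosomal proteins, taken by name, had a median of 0.05 over 77 genes, of which 2 were lower and 0 higher at an unadjusted p under 0.05, against 9.98% and 10.9% of all features. These were Mrpl15 at -0.95 ± 0.43 and Mrpl57 at -0.40 ± 0.13. A probe annotated as the mitochondrial gene mt-Atp6, whose symbol the gene table gives as a synonym of Gm10925, had -0.05 ± 0.02, and the other mitochondrially encoded subunits were not analysed here.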

How the data were processed

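RNA was isolated with Trizol and labelled with a dendrimer kit of Genisphere, per the labels' protocols. The authors deposited log ratios of 38880 probes on each array, used here as log2 values of channel 2 (cKO) over channel 1 (wild type), per the labels. The sources used here give no scanner, background correction, normalization or log base, and no intensities were used. The median of each array was 0. Spots over 5 in size on all arrays whose sign turned on the array with flipped dyes (52) were left out as following the dye. Without them, replicates 1 and 2 correlated over probes at Pearson's r = 0.436, replicates 1 and 3 at 0.283, and replicates 2 and 3 at 0.237. Probes are not independent replicates.

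Gene names came from GEO's platform annotation, which can be out of date. Of all probes, 30457 had 1 symbol, 0 had several and 8423 had none. A RefSeq gene table (GRCm38.p6) gave present symbols: 18812 were current, 231 current apart from letter case, 11220 a synonym of 1 gene, and 194 were kept. Probes of a gene were averaged per array, and 28199 features with a value on all 3 arrays were tested against 0 with limma 3.58.1 in R 4.3.3 (intercept, eBayes, 2 residual and 2.09 prior degrees of freedom), adjusted by Benjamini-Hochberg over all features at 0.05. The test was checked on simulated data. Tables and figures used Python 3.11.15, pandas 2.3.3 and matplotlib 3.10.9.

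The members, gene lists, tests and the rule for named genes were chosen with earlier results of these data known. The rule named Smarca5, the 3 members of smallest p per complex and direction, the highest and lowest member per complex, complex II, the complex IV and c-ring isoforms, the 2 genes of smallest p per list, and members with probes of opposite sign of which at least 1 had an unadjusted p under 0.05. Other genes were named after their values were seen. Alternatives were array scaling, centring, a dye term, single probes, the median over probes, symbols as on the array, no moderation, the turned sign of replicate 3, the 52 spots kept, and each replicate left out.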

Additional observations from a re-analysis of the deposited data

How the results depend on the processing

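No member passed limma's adjusted p of 0.05 under any of the 12 alternatives. No feature passed either, except 2 without moderation, where 5 members were higher at an unadjusted p under 0.05. The median of all members kept within the SD of its array medians throughout. With single probes tested, the Sdha spot without a value on replicate 2 was left out. In that fit 144 probes of members were within 0.2 of 0 and 6 were lower at an unadjusted p under 0.05. The median of complex II was 0.15, since most of its probes are Sdha. With a dye term the median of complex IV was 0.015. With the sign of replicate 3 turned, 1110 features (5893 as reported) had an unadjusted p under 0.05, among them 0 higher and 0 lower members, the median of complex II was -0.029, and Ndufb4 turned to 0.027. Leaving out each replicate gave 3570 (without replicate 1) to 5048 features and 1 to 2 lower members (1 without replicate 1 and without replicate 2) at an unadjusted p under 0.05, and medians of complex IV from -0.045 (without replicate 3) to 0. The cause of these shifts was not tested. Each array holds cKO and wild type as 1 ratio, so the test against 0 was paired by array. The ratios do not allow the 2 channels to be analysed apart. The number of arrays and the unknown signal over background limit all values.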

Other observations

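A pair of genes next to the family by function fell outside its rule by their names in the gene table. Atpif1, the protein that inhibits the ATP synthase when it runs backwards, had 0.02, 0.05 and 0.01, a mean of 0.03 ± 0.02 (SD, n = 3). Dmac2l, once named Atp5s, had 0.18, 0.09 and 0.50, a mean of 0.26 ± 0.22, with limma's adjusted p at 0.399. The genes spotted about as often as Sdha differed among themselves, with B2m, the light chain of MHC class I, at 0.26 ± 0.11 and Ywhaz, a 14-3-3 protein, at 0.01 ± 0.10, while Actb, beta-actin, on 32 spots, had -0.02 ± 0.11.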
